A study of Mus musculus with 9 samples.

Results

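Tetraspanins are small membrane proteins, and 10 of their genes were followed here: Tspan3, Tspan4, Tspan18, Cd9, Cd37, Cd53, Cd63, Cd81, Cd82 and Cd151. They were taken by symbol from a table of 53465 mouse genes, and each symbol matched 1 Ensembl gene. The list was chosen with earlier results of these data known. Transcripts were counted by poly(A) RNA sequencing in 9 libraries, 3 in each of 3 groups. Lining libraries A, B and C came from CD45+CD11b+F4/80+GFP+ cells and interstitial libraries D, E and F from CD45+CD11b+F4/80+GFP- cells, both sorted from hind paw synovial tissue of healthy Cx3cr1-GFP mice, in which the fractalkine receptor locus drives green fluorescent protein. BMDM (bone marrow-derived macrophage) libraries G, H and I came from C57BL/6 marrow cells grown for 5 days in medium conditioned with MCSF (macrophage colony-stimulating factor). Nothing in the labels tells whether libraries within a group stem from different mice. Each p-value therefore weighs a difference against the spread between these libraries, which may be technical. For each gene the 9 libraries share 1 estimate of that spread, so every comparison also draws on the group left out of it. The GFP gate defines the synovial groups by a reporter and not by position, and the BMDM differ from the sorted cells in strain label, tissue, culture and sorting at once, which cannot be told apart.

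Tetraspanins cross the membrane several times, bind one another and hold partner proteins such as integrins, immunoglobulin superfamily proteins and metalloproteases in shared membrane patches. In macrophages they take part in adhesion, cell fusion, antigen presentation and the sorting of endosomal vesicles. CD37 and CD53 are largely restricted to leukocytes, CD63 resides mainly in late endosomes and lysosomes, and CD9, CD81 and CD151 occur on many cell types.

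The libraries held between 2194920 and 22499823 counts, with the 3 BMDM libraries the deepest and lining A, interstitial D and lining C the shallowest. Levels are given as CPM, the usual count relative to library size, with libraries scaled by the TMM method. Correlations of log2 CPM across genes, which are not independent, ranged over 0.872 to 0.924 among lining libraries, 0.850 to 0.924 among interstitial ones and 0.996 to 0.997 among BMDM. A lining library paired with an interstitial one gave values from 0.817 (C with D) to 0.936 (B with E). These values overlapped the ranges within both sorted groups. Lining B and interstitial E were more alike than any pair within either sorted group. All 7 macrophage identity markers were detected in every group, with a summed level of 8713 to 10292 CPM in lining, 6472 to 9617 CPM in interstitial and 4930 to 5126 CPM in BMDM libraries. Cx3cr1, the gene of the sort reporter, had 663 to 775 CPM in lining and 2.66 to 7.86 CPM in interstitial libraries. In these bulk libraries, fewer cells of a type and less RNA per cell cannot be told apart.

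Per kilobase of annotated exon, the 10 genes covered a wide range and kept much of their order in all 3 groups. Levels between genes are given as RPKM (the scaled CPM divided by the exon length in kilobases). That length covers all annotated exons of a gene and can exceed that of the transcript present, so the order depends on it. Cd9 was the highest in each group, with 426 ± 44.3 RPKM in lining, 330 ± 197 RPKM in interstitial and 272 ± 5.14 RPKM in BMDM libraries (mean ± SD, n = 3 each). It lay above 99.4%, 99.1% and 99.1% of the 12610 genes tested in lining, interstitial and BMDM libraries. Cd53 came second in every group, with 190 ± 43.6, 243 ± 5.98 and 135 ± 5.13 RPKM in the same order of groups. By mean CPM, without the division by length, Cd63 stood above Cd53 in lining (445 and 330 CPM) and BMDM libraries (408 and 236 CPM). In interstitial libraries it stood below Cd53 (375 and 424 CPM). Tspan18 was the lowest in every group, at 2.35 ± 1.72 RPKM in lining, 0.0723 ± 0.125 RPKM in interstitial and 0.0115 ± 0.00585 RPKM in BMDM libraries.

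**Figure D1:**
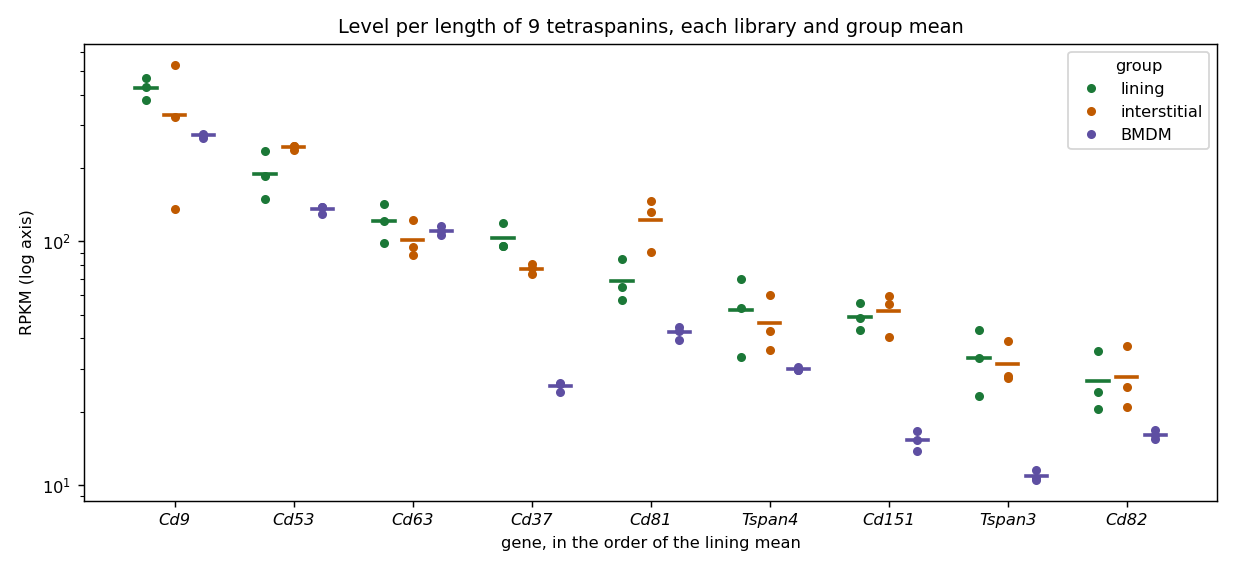
Level per length (RPKM, log axis) of 9 tetraspanins, with a point for each library and a bar for each group mean; Tspan18 is left out because its level was 0 in 2 interstitial libraries. Cd9 and Cd53 lead in each group, and Cd81 stands above Cd37 in interstitial and BMDM libraries but below it in lining libraries.

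Between these ends the order differed by group. In lining the sequence after Cd53 was Cd63, Cd37, Cd81, Tspan4, Cd151, Tspan3 and Cd82. The neighbours Cd63 and Cd37, Cd81 and Tspan4, Tspan4 and Cd151, and Tspan3 and Cd82 had overlapping ranges. Within a library, Cd63 was above Cd37 and Tspan3 above Cd82 in 3 of 3 lining libraries, and the other 2 pairs kept their order in 2 of 3. In interstitial libraries it was Cd81, Cd63, Cd37, Cd151, Tspan4, Tspan3 and Cd82, and 5 neighbouring pairs had overlapping ranges. Of these, Cd9 was above Cd53 and Cd151 above Tspan4 in 2 of 3 libraries, and Cd81 was above Cd63, Tspan4 above Tspan3 and Tspan3 above Cd82 in 3 of 3. In BMDM it was Cd63, Cd81, Tspan4, Cd37, Cd82, Cd151 and Tspan3, and of neighbouring genes only Cd82 and Cd151 overlapped, with Cd82 higher in 2 of 3 libraries. The summed level of the 10 genes was 966 to 1190 RPKM in lining, 910 to 1234 RPKM in interstitial and 647 to 672 RPKM in BMDM libraries, so each sorted library lay above each BMDM library.

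The first comparison set GFP+ macrophages, labelled lining, against GFP- macrophages, labelled interstitial. Tspan18 was higher and Cd81 lower in lining, and the other 8 tetraspanins did not pass the test. The 2 calls stood beside 5.79% of genes called in either direction. They came to 1 of 10 higher, where 3.74% of all 12610 genes tested were higher (471 genes), and 1 of 10 lower, where 2.05% were lower (259 genes). With plain library totals that split over all genes was 380 higher and 326 lower. With only these 2 groups in the fit, so without the BMDM libraries, it was 255 higher and 111 lower, of 10830 genes tested. The median log2 fold change of the 10 members was 0.14, beside -0.01 over all genes tested. Calls are at an edgeR adjusted p under 0.05 over all genes tested.

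Tspan18 lies on chromosome 2 (93201760 to 93334505, minus strand, GRCm38, ENSMUSG00000027217) and is known in human endothelial cells as a regulator of calcium entry. Its reads numbered 70, 185 and 16 in lining A to C, against 4, 0 and 0 in interstitial D to F, which is 33.9, 17.7 and 6.01 CPM against 1.77, 0 and 0 CPM. Every lining library was above every interstitial library, and lining itself spanned a wide range with A highest and C lowest. The summed counts, 271 in lining and 4 in interstitial, gave an 80.0-fold ratio with an exact binomial (Clopper-Pearson) 95% interval of 30.9 to 296, which covers counting error only. The fitted log2 fold change was 5.94 ± 1.26 SE (adjusted p = 0.0169). Leaving out 1 library at a time moved it between 4.82, without interstitial E, and 10.79, without interstitial D, where the group is at 0 and the value is no bound. It was 5.15 without lining A and 5.37 without interstitial F. All 4 interstitial reads lay in library D, and without it Tspan18 was at least 93.3-fold higher in lining, taking 3 counts over the remaining interstitial libraries as the floor. The call was lost without lining A, lining B or interstitial E (adjusted p = 0.0938, 0.0678 and 0.0597).

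Cd81 lies on chromosome 7 (143052739 to 143067934, plus strand, ENSMUSG00000037706) and encodes the CD81 component of the B-cell coreceptor, which in mouse macrophages also restrains cell fusion. It had 187, 165 and 243 CPM in lining A to C, against 379, 261 and 422 CPM in interstitial D to F. The groups did not overlap, although the highest lining library and the lowest interstitial library lay close together. The log2 fold change was -0.84 ± 0.19 SE, or 1.78-fold lower in lining (adjusted p = 0.0242). The direction was the same in all 16 alternative fits, but the call was lost without lining A, lining B, interstitial D or interstitial F (adjusted p = 0.0986, 0.0943, 0.0525 and 0.0540). It was also lost when the fit held only the 6 sorted libraries (0.0621). In the same comparison the dendritic cell marker Cd209a and the endothelial and leukocyte marker Pecam1 were lower in lining (log2 fold changes -2.49 and -2.55, adjusted p = 0.0443 and 0.0446). So were the platelet marker Pf4, which macrophages also express, and the osteoclast marker Ctsk (-2.13 and -1.15, adjusted p = 9.99e-04 and 0.0164). Each was the only call among the tested markers of its list (5 dendritic, 5 endothelial, 3 platelet, 5 osteoclast), beside 5.79% of all genes. The osteoclast marker Acp5 went the other way (0.16, adjusted p = 0.861). Osteoclast markers summed to 127 to 254 CPM in lining, against 258 to 528 CPM in interstitial libraries. The 7 dendritic markers summed to 3.88 to 125 CPM in lining, against 132 to 503 CPM in interstitial libraries, and the 7 endothelial markers to 7.76 to 13.9 CPM, against 27.3 to 44.8 CPM. Fibroblast markers summed to 165 to 301 CPM in lining, against 191 to 687 CPM in interstitial libraries. Of these 7, 0 were called, beside 5.79% of all genes, and their median log2 fold change was -0.87. Dcn and Pdgfra were lower in every lining library than in every interstitial one, as were 8.66% of all genes. B-cell markers summed to 0.970 to 11.2 CPM in lining, against 10.6 to 18.3 CPM in interstitial libraries, and 0 of the 3 tested were called. The part of these cells in the Cd81 difference was not tested.

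**Figure D2:**
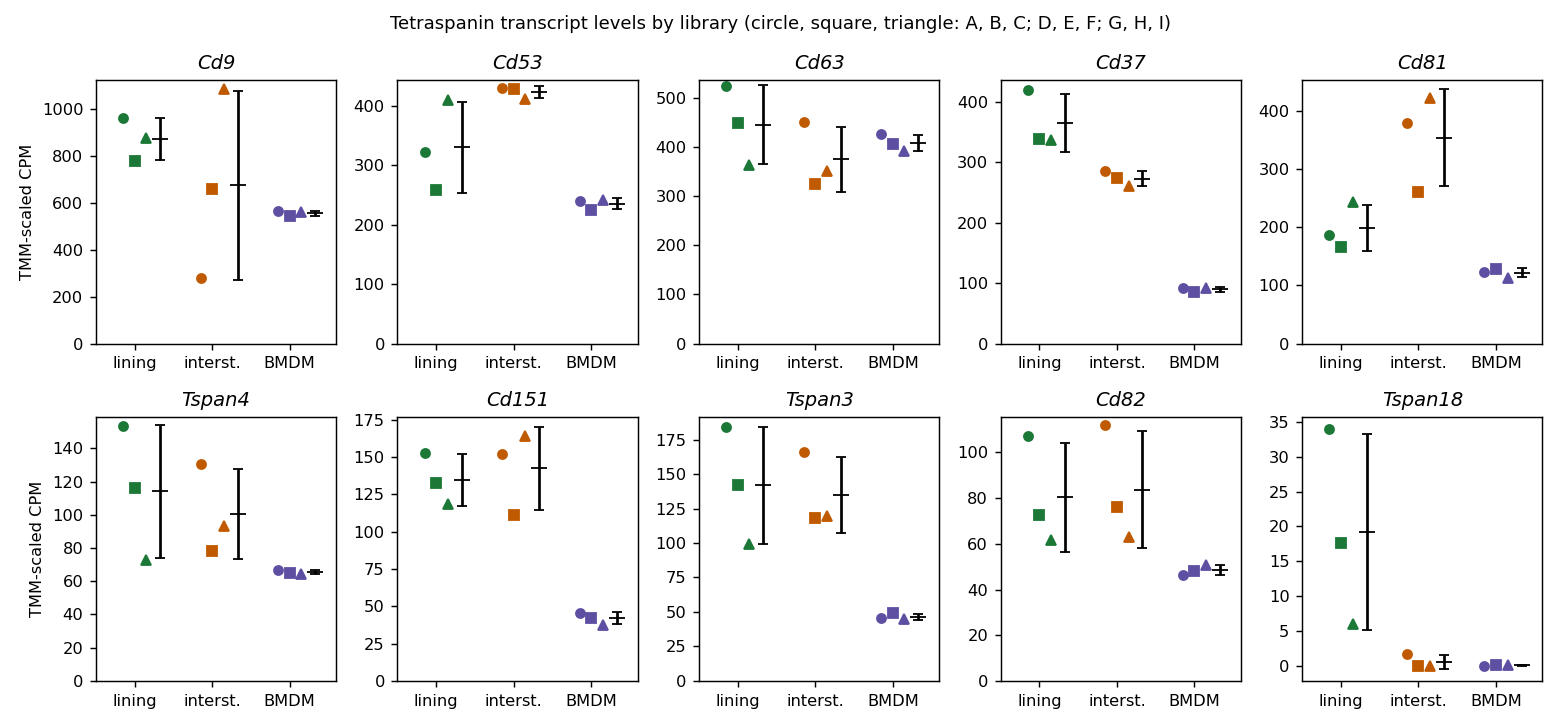
Level (TMM-scaled CPM) of the 10 tetraspanins in each library, with the mean and SD of 3 libraries beside the points. Tspan18 is near 0 in interstitial and BMDM libraries, Cd37, Cd151 and Tspan3 are lowest in BMDM, and Cd9 is spread from 278 to 1084 CPM in interstitial libraries.

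The leukocyte tetraspanins Cd37 and Cd53 had fold changes of opposite sign between lining and interstitial libraries, and neither passed. Cd37 (chromosome 7, 45233632 to 45239115, minus strand, ENSMUSG00000030798), whose product associates with the lectin receptor dectin-1 and with class II molecules, had 420, 337 and 337 CPM in lining A to C, against 285, 273 and 260 CPM in interstitial D to F. Its log2 fold change of 0.42 ± 0.13 SE missed the threshold (adjusted p = 0.0850), while DESeq2 called it (adjusted p = 0.0319). Cd53 (chromosome 3, 106759921 to 106790149, minus strand, ENSMUSG00000040747) had 322, 259 and 410 CPM in lining, against 430, 429 and 412 CPM in interstitial libraries, a log2 fold change of -0.36 ± 0.16 SE (adjusted p = 0.231). Among the 16 alternative fits it was called lower only without lining C (adjusted p = 0.0450). Both genes separated the groups without overlap, as did Tspan18 and Cd81, which makes 2 members higher and 2 lower in all lining libraries. Of all genes tested, 18.6% separated these groups, 9.92% in the higher and 8.66% in the lower direction.

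Set against each other within a library, where library scaling cancels, Cd37 and Cd81 stood in a different order per length in lining than in the other groups. Cd37 per length was 1.83, 1.67 and 1.13 times Cd81 in lining A to C, against 0.614, 0.855 and 0.504 times in interstitial D to F. In BMDM G to I the ratio was 0.607, 0.540 and 0.666. Per length, Cd37 was thus the higher gene in each lining library and the lower one in each of the other 6 libraries. By CPM it was the higher gene in interstitial E as well, so this order depends on the exon length used. This pair was chosen after its values were seen and was not tested.

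**Figure D3:**
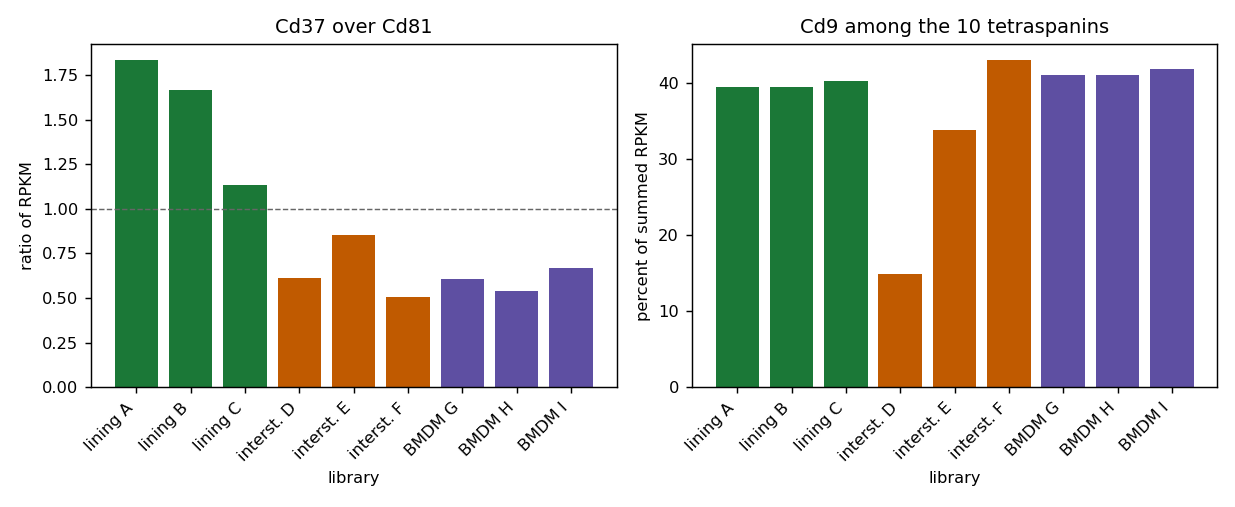
Left, ratio of Cd37 to Cd81 (RPKM) in each library, with a dashed line at 1; right, share of Cd9 in the summed RPKM of the 10 tetraspanins. The ratio is above 1 in the lining libraries and below 1 in the others, and the Cd9 share is lowest in interstitial D, at 14.9%.

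Cd9 (chromosome 6, 125460266 to 125494791, minus strand, ENSMUSG00000030342), which takes part in membrane fusion and in mouse macrophages restrains it, varied more between interstitial libraries than any other member above 1 CPM. It had 960, 779 and 876 CPM in lining A to C, against 278, 660 and 1084 CPM in interstitial D to F. The interstitial values ran from below to above all lining values, with a coefficient of variation of 59.9%. The log2 fold change of 0.37 ± 0.37 SE did not pass (adjusted p = 0.659, 95% interval -0.48 to 1.21), and it was -0.02 without interstitial D. Cd9 made up 39.5%, 39.5% and 40.3% of the summed tetraspanin RPKM in lining A to C, against 14.9%, 33.8% and 43.0% in interstitial D to F. Among the markers of other cells, Itgax, a gene of dendritic cells and some macrophages, had 11.1, 42.4 and 411 CPM in interstitial D to F, and the 7 dendritic markers summed to 152, 132 and 503 CPM. Without Itgax the other 6 dendritic markers summed to 140.5, 89.4 and 92.0 CPM and were highest in D, where Cd9 was lowest. Neutrophil markers summed to 0, 48.8 and 80.3 CPM and erythroid markers to 422, 12.1 and 28.5 CPM in the same libraries. Fibroblast markers summed to 191, 687 and 364 CPM and osteoclast markers to 258, 528 and 438 CPM, both lowest in D, as Cd9 was. Platelet markers summed to 1944, 1099 and 903 CPM and were highest in D. The part of these cells in the Cd9 values was not tested.

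The remaining 5 tetraspanins did not pass between lining and interstitial libraries, and each overlapped between the groups. Cd63, the endosomal and vesicle member (chromosome 10, 128900989 to 128912822, plus strand, ENSMUSG00000025351), had 524, 448 and 363 CPM in lining, against 450, 324 and 350 CPM in interstitial libraries (log2 fold change 0.25, 95% interval -0.11 to 0.61). Tspan4, a component of migrasomes, the vesicles left behind by moving cells (chromosome 7, 141475240 to 141493427, plus strand, ENSMUSG00000025511), differed by 0.19 (-0.35 to 0.73). For Tspan3 (chromosome 9, 56131725 to 56165477, minus strand, ENSMUSG00000032324) the log2 fold change was 0.08 (-0.38 to 0.54). Cd151, a partner of laminin-binding integrins (chromosome 7, 141467392 to 141471473, plus strand, ENSMUSG00000025510), differed by -0.08 (-0.46 to 0.30). Cd82, known as a suppressor of tumour cell spread (chromosome 2, 93419111 to 93463140, minus strand, ENSMUSG00000027215), differed by -0.06 (-0.58 to 0.47). The widest of these intervals, that of Tspan4, reached 0.73, so the data leave room for a difference of that size.

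**Figure D4:**
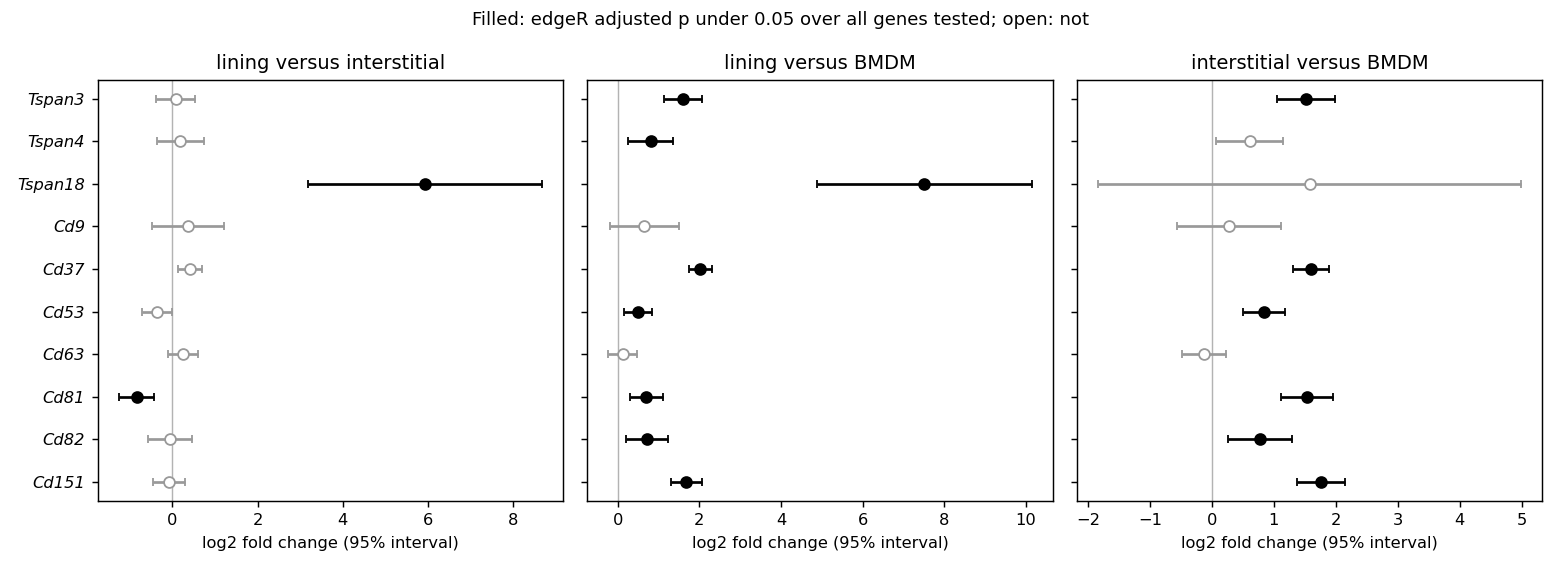
Log2 fold change of each tetraspanin with its 95% interval in the 3 comparisons, filled where the adjusted p over all genes tested was under 0.05 and open otherwise; the horizontal scale differs between panels. Most members lie right of 0 against BMDM, while against interstitial cells Tspan18 lies right of 0 and Cd81 left of it.

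The other comparisons set each synovial population against cultured BMDM, and both share the same 3 BMDM libraries. In lining 8 of the 10 tetraspanins were higher and 0 lower, where 43.5% of all genes tested were called, 23.1% higher and 20.5% lower. In interstitial libraries 6 were higher and 0 lower, where 44.8% of all genes were called, 23.4% higher and 21.3% lower. Every lining library lay above every BMDM library for 9 members, beside 29.2% of all genes (33.9% the other way, 63.1% in all). Every interstitial library did so for 7 members, beside 28.4% of all genes (33.8% the other way, 62.2% in all). The median log2 fold change of the 10 members was 0.76 in lining and 1.18 in interstitial libraries against BMDM, beside 0.00014 and -0.01 over all genes tested. The count of lower members was also 0 at an unadjusted edgeR p under 0.05, with DESeq2 and with limma-voom in both comparisons. This adds little, because every edgeR log2 fold change of a member was positive in lining. In interstitial libraries only that of Cd63 was negative (-0.12).

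Cd37, Cd151 and Tspan3 were higher in both synovial groups than in BMDM, and in lining their fold changes were the largest of the members after Tspan18. Cd37 had 420, 337 and 337 CPM in lining and 285, 273 and 260 CPM in interstitial libraries, against 92.0, 85.0 and 92.2 CPM in BMDM G to I. Lining exceeded BMDM 4.06-fold (95% interval 1.73 to 2.31 on the log2 scale, adjusted p = 2.27e-07) and interstitial libraries 3.04-fold (1.32 to 1.89, adjusted p = 1.41e-06). Cd151 had 153, 133 and 119 CPM in lining and 152, 111 and 164 CPM in interstitial libraries, against 45.8, 42.2 and 37.7 CPM in BMDM. Its log2 fold changes were 1.68 ± 0.18 SE in lining and 1.76 ± 0.18 SE in interstitial libraries (adjusted p = 1.13e-05 and 7.35e-06). Tspan3 had 184, 142 and 99.5 CPM in lining and 166, 118 and 119 CPM in interstitial libraries, against 45.7, 49.1 and 44.9 CPM in BMDM. It was 3.04-fold higher in lining and 2.87-fold higher in interstitial libraries, each with an SE of 0.21 on the log2 scale (adjusted p = 8.74e-05 and 1.21e-04). The lowest sorted library lay above the highest BMDM library for each of these 3 genes, and each kept its call in all 16 alternative fits of both comparisons.

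Cd81, Cd53 and Cd82 were also higher in both synovial groups. The interstitial calls of Cd81 and Cd53 held in all 16 alternative fits, while those in lining and both of Cd82 did not. Cd81 averaged 199 ± 40.0 CPM in lining and 354 ± 83.3 CPM in interstitial libraries, against 122 ± 7.92 CPM in BMDM (SD, n = 3 each). It was higher by 0.70 ± 0.19 SE on the log2 scale in lining (adjusted p = 0.0107, lost without lining C or BMDM I, 0.0566 and 0.0618) and by 1.54 ± 0.19 SE in interstitial libraries (adjusted p = 4.91e-05). Cd53 averaged 330 ± 76.0 CPM in lining and 424 ± 10.4 CPM in interstitial libraries, against 236 ± 8.93 CPM in BMDM. Its log2 fold changes were 0.48 ± 0.16 SE in lining (adjusted p = 0.0253) and 0.85 ± 0.16 SE in interstitial libraries (adjusted p = 9.61e-04). The lining call of Cd53 was lost without lining A, lining C or any 1 BMDM library (highest adjusted p = 0.116) and with plain library totals or no filter (0.0801 and 0.103). Cd82 averaged 80.4 ± 23.8 CPM in lining and 83.7 ± 25.5 CPM in interstitial libraries, against 48.5 ± 2.12 CPM in BMDM. Its log2 fold changes were 0.72 ± 0.24 SE and 0.78 ± 0.24 SE (adjusted p = 0.0276 and 0.0184). The Cd82 call in lining was lost without lining A, lining B or any 1 BMDM library (highest adjusted p = 0.157) and with plain library totals (0.0520). In interstitial libraries it was lost without D or any 1 BMDM library (highest adjusted p = 0.0831).

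Tspan18 and Tspan4 were called higher than BMDM in lining and not in interstitial libraries. Tspan18 had 1, 2 and 3 reads in BMDM G to I, so the 271 lining reads stood 193-fold above the 6 BMDM reads (counting interval 87.5 to 530, adjusted p = 3.63e-04). The 4 interstitial reads, all in library D, gave a ratio of 2.41 to BMDM with a counting interval of 0.501 to 10.2, and the test did not pass (adjusted p = 0.442). Tspan4 had 153, 116 and 72.8 CPM in lining and 131, 77.9 and 93.0 CPM in interstitial libraries, against 66.7, 64.8 and 64.4 CPM in BMDM. It was higher in lining by 0.80 ± 0.25 SE on the log2 scale (adjusted p = 0.0206), a call lost without lining A, lining B or any 1 BMDM library (highest adjusted p = 0.123). In interstitial libraries the value was 0.61 ± 0.25 SE (adjusted p = 0.0624), and it passed with DESeq2, in the fit of those 6 libraries, and without lining C or interstitial E (adjusted p = 0.0383, 0.0294, 0.0289 and 0.0449). The difference between the lining and interstitial values of Tspan4 is the log2 fold change of 0.19 given above, which did not pass.

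Cd63 and Cd9 were not called against BMDM. Cd63 had 524, 448 and 363 CPM in lining and 450, 324 and 350 CPM in interstitial libraries, against 426, 405 and 392 CPM in BMDM. All 3 groups overlapped, and the 95% intervals of the log2 fold change ran from -0.23 to 0.48 in lining and from -0.48 to 0.23 in interstitial libraries. Cd9 had 564, 544 and 561 CPM in BMDM, below each lining library. Its lining value of 0.65 ± 0.38 SE did not pass in the fit of all 9 libraries (adjusted p = 0.196). With only the lining and BMDM libraries in the fit the value was 0.63 and passed (adjusted p = 9.28e-04), and it passed as well without interstitial D (adjusted p = 0.0145). Against BMDM, interstitial Cd9 had a log2 fold change of 0.28 ± 0.37 SE (adjusted p = 0.579), with library D below and E and F above the BMDM range. Without D it was 0.61 and passed (adjusted p = 0.0203), and without F it was -0.26.

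Markers of other cells had larger sums in sorted than in BMDM libraries for several lists, but not for all. Neutrophil markers summed to 0 to 4.10 CPM in lining and 0 to 80.3 CPM in interstitial libraries, against 27.0 to 31.4 CPM in BMDM. Mast cell markers summed to 4.36 to 17.8 and 13.3 to 23.4 CPM, against 11.1 to 11.9 CPM in BMDM. For erythroid markers the sums were 16.3 to 151 and 12.1 to 422 CPM, against 0.795 to 4.66 CPM in BMDM. The 7 fibroblast markers summed to 165 to 301 CPM in lining and 191 to 687 CPM in interstitial libraries, against 2.08 to 2.88 CPM in BMDM, and each of the 7 had reads in every group. The 7 platelet markers summed to 240 to 349 CPM in lining and 903 to 1944 CPM in interstitial libraries, against 11.9 to 16.9 CPM in BMDM. Pf4, which macrophages also express, made up nearly all of that sum in the sorted groups and most of it in BMDM. The other 6 summed to 0.376 to 4.49 CPM in lining and 5.10 to 11.5 CPM in interstitial libraries, against 2.04 to 3.59 CPM in BMDM. Of these, Gp1ba and Gp6 had 0 reads in both sorted groups and Gp1bb had 0 in lining, while Itga2b, Ppbp and Gp9 were detected in each group. B-cell markers summed to 0.970 to 11.2 CPM in lining, a range that overlapped the 4.80 to 5.67 CPM in BMDM, and to 10.6 to 18.3 CPM in interstitial libraries. The 6 osteoclast markers summed to 127 to 254 CPM in lining and 258 to 528 CPM in interstitial libraries, against 20.1 to 25.1 CPM in BMDM. Dendritic cell markers summed to 3.88 to 125 CPM in lining and 132 to 503 CPM in interstitial libraries, against 9.82 to 11.4 CPM in BMDM. Of the T and NK cell markers, Cd4, which some macrophages express, was the only one above 1 CPM in any library, and Cd3g, Cd8a and Ncr1 had 0 reads in both sorted groups. Endothelial markers summed to 7.76 to 13.9 CPM in lining and 27.3 to 44.8 CPM in interstitial libraries, against 45.8 to 50.8 CPM in BMDM. Kdr made up most of the BMDM sum, and without it the other 6 summed to 4.37 to 12.8 CPM in lining and 25.4 to 42.7 CPM in interstitial libraries, against 1.74 to 2.64 CPM in BMDM. Their part in the Tspan18 values was not tested. CD151, CD81, CD82, CD63 and CD9 are also made by fibroblasts, and the part of such cells in the differences from BMDM was not tested.

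Upstream sequences are shown for 4 members higher than BMDM in both synovial groups, the leukocyte genes Cd37 and Cd53 and the widely expressed Cd81 and Cd151, to set the start regions of these kinds of tetraspanin side by side. RefSeq start sites (GRCm38.p6) were found for 9 of the 10 members, Tspan18 being the other, and where a gene had several the one nearest the gene's outer end in the count table was used. Each line gives the 250 bases before the start, 5′ to 3′ on the coding strand, with capitals marking matches on either strand to the ETS factor core AGGAAGT, the GC box GGGCGG or the E-box CACGTG. The TATA box letters TATAAA were searched too and found in none of the 9 windows. The windows are chr7:45238840-45239089 (minus strand) for Cd37, chr3:106790150-106790399 (minus strand) for Cd53, chr7:143052500-143052749 (plus strand) for Cd81 and chr7:141467112-141467361 (plus strand) for Cd151.
Cd37: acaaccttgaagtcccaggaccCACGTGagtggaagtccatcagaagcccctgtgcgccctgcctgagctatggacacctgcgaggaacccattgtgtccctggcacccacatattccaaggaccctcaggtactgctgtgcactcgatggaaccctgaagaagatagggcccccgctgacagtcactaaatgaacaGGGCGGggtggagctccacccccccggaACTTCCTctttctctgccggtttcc
Cd53: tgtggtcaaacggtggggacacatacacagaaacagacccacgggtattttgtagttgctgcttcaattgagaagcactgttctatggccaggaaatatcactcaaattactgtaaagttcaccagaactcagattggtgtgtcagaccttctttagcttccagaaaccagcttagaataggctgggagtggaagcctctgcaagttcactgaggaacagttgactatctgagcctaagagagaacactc
Cd81: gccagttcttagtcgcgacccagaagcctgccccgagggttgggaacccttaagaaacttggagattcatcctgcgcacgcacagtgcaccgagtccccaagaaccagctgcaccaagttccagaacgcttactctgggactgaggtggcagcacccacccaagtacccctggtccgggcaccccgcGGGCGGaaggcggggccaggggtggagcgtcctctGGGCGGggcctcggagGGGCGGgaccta
Cd151: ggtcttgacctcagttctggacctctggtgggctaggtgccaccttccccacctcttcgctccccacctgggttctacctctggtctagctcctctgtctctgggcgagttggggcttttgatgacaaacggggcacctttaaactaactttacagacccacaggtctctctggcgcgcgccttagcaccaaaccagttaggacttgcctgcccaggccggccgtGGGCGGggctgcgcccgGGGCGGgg
Cd53 had 2 CpG dinucleotides in its window and none of the motifs, and Cd37 had 8 CpGs with 1 ETS core, 1 GC box and 1 E-box. Cd81 had 16 CpGs and 3 GC boxes, and Cd151 had 12 CpGs and 2 GC boxes. Among all 32851 promoter windows of this length, the median number of CpGs was 6, 7.69% held the ETS core, 32.7% the GC box, 6.02% the E-box and 12.4% the TATA box. The other 5 windows held 24 CpGs in Tspan4, 16 in Cd9, 14 in both Tspan3 and Cd82 and 6 in Cd63, with GC boxes in Tspan4, Cd9 and Cd82. These matches describe the letters alone. The windows of Cd37, Tspan3 and Cd63 lie wholly within the outer bounds that the count table's annotation gives these genes, so their RefSeq starts are not the outermost ones.

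Of the other 21 genes of the tetraspanin family, 11 passed the filter on low counts, and 5 were called in at least 1 comparison. Of the rest, 6 were tested and called in no comparison and 10 did not pass the filter, among which Tspan11 and Prph2 had 0 reads in all 9 libraries. Of the 11 tested, 2 were called between lining and interstitial libraries, beside 5.79% of all genes, 3 between lining and BMDM, beside 43.5%, and 3 between interstitial libraries and BMDM, beside 44.8%. Tspan14 and Tspan17 belong to the TspanC8 subgroup, which binds the metalloprotease ADAM10 and directs it to substrates. Tspan14 had 249, 245 and 243 CPM in lining A to C and 192, 164 and 139 CPM in interstitial D to F, against 142, 141 and 136 CPM in BMDM G to I. It was higher in lining than in BMDM (log2 fold change 0.81 ± 0.13 SE, adjusted p = 4.16e-04) and than in interstitial libraries (0.58 ± 0.13 SE, adjusted p = 0.0257). The second call was lost without lining A or B, interstitial E or F, or any 1 BMDM library (highest adjusted p = 0.0862), with plain library totals and with only the 6 sorted libraries (highest 0.120). Tspan17 averaged 46.3 ± 12.4 CPM in lining and 53.8 ± 8.31 CPM in interstitial libraries, against 17.4 ± 1.86 CPM in BMDM. It was higher in both (1.41 ± 0.23 SE and 1.62 ± 0.23 SE, adjusted p = 4.24e-04 and 1.31e-04).

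Tspan32, a member found mainly in blood cells, was lower in lining than in either other group. It had 5.82, 2.96 and 11.3 CPM in lining, against 29.3, 11.9 and 35.7 CPM in interstitial and 23.4, 21.8 and 26.2 CPM in BMDM libraries. All lining libraries lay below all libraries of the other groups. The log2 fold change was -1.93 ± 0.50 SE against BMDM (adjusted p = 0.00811) and -2.02 ± 0.51 SE against interstitial libraries (adjusted p = 0.0387). The call against interstitial libraries was lost without lining A or B, interstitial D or F, or any 1 BMDM library (highest adjusted p = 0.130), with limma-voom and with only the 6 sorted libraries. Tspan13 and Tspan2 were higher in interstitial libraries than in BMDM (1.48 ± 0.35 SE and 2.27 ± 0.75 SE, adjusted p = 0.00485 and 0.0271). Tspan2 had at most 42 reads in a sorted library, and its call was lost without any 1 of the BMDM libraries (highest adjusted p = 0.157) and with no filter (0.101).

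Partners of tetraspanins were measured as a list of 20 genes, all of which passed the filter. Against interstitial libraries, 2 were higher and 1 lower in lining, beside 5.79% of all genes called, with a median log2 fold change of 0.19. Itga6, the laminin-binding integrin chain that CD151 associates with, had 147, 152 and 196 CPM in lining, against 29.3, 58.3 and 51.2 CPM in interstitial libraries (log2 fold change 1.81 ± 0.22 SE, adjusted p = 4.38e-04). Ptgfrn, also called CD9 partner 1, had 170, 134 and 110 CPM in lining, against 40.8, 46.0 and 60.5 CPM in interstitial libraries (1.48 ± 0.21 SE, adjusted p = 0.00113). The fatty acid and lipoprotein receptor gene Cd36, whose product can associate with CD9 and CD81, was lower, with 850, 834 and 1061 CPM in lining, against 3313, 2479 and 1502 CPM in interstitial libraries (-1.41 ± 0.25 SE, adjusted p = 0.00601). No library of one group overlapped the other for these 3 genes, and each kept its call in all 16 alternative fits. Of the tetraspanins named as their partners, Cd151 and Cd9 did not pass in this comparison, and Cd81 was lower in lining, as given above.

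Against BMDM, 5 of the 20 partners were higher and 3 lower in lining, and 4 were higher and 7 lower in interstitial libraries, with median log2 fold changes of 0.07 and 0.08. The called partners were 8 of 20 in lining, beside 43.5% of all genes, and 11 of 20 in interstitial libraries, beside 44.8%. Ptgfrn averaged 138 ± 30.3 CPM in lining and 49.1 ± 10.2 CPM in interstitial libraries, against 2.04 ± 0.233 CPM in BMDM, and was 67.2-fold and 24.1-fold higher (adjusted p = 6.65e-09 and 3.94e-08). Cd36 was 4.24-fold and 11.3-fold higher (adjusted p = 4.48e-05 and 9.64e-07). The dectin-1 gene Clec7a, a receptor for fungal glucans, was higher by 3.60 ± 0.67 SE and 2.97 ± 0.66 SE on the log2 scale (adjusted p = 0.00351 and 0.00735). It had 38.6, 60.1 and 242 CPM in interstitial D to F, and without library F its log2 fold change was 1.77 and still passed. Itga6, with 296 to 364 CPM in BMDM, was 2.02-fold lower in lining and 7.05-fold lower in interstitial libraries (adjusted p = 0.00219 and 1.21e-06). Timp1, a protease inhibitor and ligand of CD63, was higher in interstitial libraries by 4.28 ± 1.49 SE (adjusted p = 0.0426), a call lost without interstitial F or any 1 BMDM library (highest adjusted p = 0.204), with no filter and with limma-voom. Its log2 fold change was 2.20 without interstitial F. Of 6 membrane proteins of the late endosome and lysosome, where CD63 also resides, 2 were higher in lining than in interstitial libraries, beside 5.79% of all genes called, the macrophage gene Cd68 (0.82 ± 0.15 SE, adjusted p = 0.00614) and the cholesterol transporter gene Npc1 (0.66 ± 0.12 SE, adjusted p = 0.00740). Npc1 missed the threshold with only the 6 sorted libraries in the fit (adjusted p = 0.0542). Against BMDM, 3 of these 6 were higher and 0 lower in lining, and 2 were higher and 1 lower in interstitial libraries, beside the same shares of all genes. Lamp2 and Scarb2 were higher than BMDM in both synovial groups, while Cd63 itself passed in no comparison. The lining call of Lamp2 was lost without BMDM I (adjusted p = 0.0545). That of Scarb2 was lost without lining A, lining B, BMDM G or BMDM I (highest adjusted p = 0.0965), and that of Cd68 without lining A or BMDM I (highest adjusted p = 0.0833).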

How the data were processed

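The table holds raw read counts per gene made by the authors with featureCounts 1.6.1 (exons summed by gene, strand setting 2, Ensembl release 91 of GRCm38), per the file headers. The submitters' processing notes name bcl2fastq 2.17.1.14, cutadapt 1.15, STAR 2.5.4a, DESeq2 1.20.0 and R 3.5.0. How reads matching several genes were treated is not given in the sources used here, so near-identical copies could share reads.

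From these counts, edgeR 4.0.16 (R 4.3.3) fitted 1 model to all 9 libraries: TMM scaling, filterByExpr (minimum count 10, minimum total 15, which left 12610 genes), a robust quasi-likelihood test and Benjamini-Hochberg adjustment over all genes tested, with 0.05 as threshold. SEs come from the F statistic. CPM are TMM-scaled, and RPKM divide them by the exon length in the table. The alternatives were median-of-ratios scaling, plain library totals, no filter, a mean CPM of 1, DESeq2 1.42.0, limma-voom (limma 3.58.1), a fit of the 2 groups compared and each library left out. On simulated counts the test recovered 35% to 40% of 2-fold changes and 69% to 76% of 4-fold changes, so a gene that did not pass may still differ. The simulation gave all groups the same spread, whereas BMDM libraries varied less than sorted ones, so it does not cover that inequality. Each library was treated as 1 replicate. Libraries of a group differed by more than sampling noise, which does not show that they stem from different mice. A floor of 3 counts equals 0.130 to 1.46 CPM. Intervals and floors cover counting error only.

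All 10 members are named. Of the other family members those called in any comparison are named, and of the partners up to 4 called ones with the largest change in each comparison. The members, lists and tests were chosen with earlier results of these data known. Names of genes outside these rules, the Cd37 to Cd81 ratio and the genomic neighbours were chosen after values were seen.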

Additional observations from a re-analysis of the deposited data

How the results depend on the processing

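Across the 16 alternatives of each comparison, 424 fold changes of the members kept direction and side of the threshold, 32 lost the call, 9 gained it and 14 reversed. Reversals concerned fold changes that had not passed, and their cause was not tested. Against interstitial libraries, leaving out each library gave -0.15 to 0.28 for Tspan3, -0.079 to 0.43 for Tspan4, -0.021 to 0.85 for Cd9, -0.32 to 0.17 for Cd82 and -0.23 to 0.0085 for Cd151, and plain library totals gave -0.0052 for Tspan3. Against BMDM, lining Cd63 was -0.0017 with no filter and -0.042 to 0.23 with a library left out. Interstitial Tspan18 ran from -3.32 to 2.69 and interstitial Cd9 from -0.26 to 0.61.

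Members called higher in lining than in interstitial libraries numbered 2 with DESeq2 and 0 to 1 with a library left out. Members called lower numbered 0 in the fit of only the 2 groups and 0 to 2 with a library left out. Members called higher in lining than in BMDM numbered 4 to 9 with a library left out. Over all genes, lining against interstitial libraries gave 709 higher and 589 lower with DESeq2, 255 and 111 in the fit of only the 2 groups, and 276 to 517 higher and 120 to 371 lower with a library left out. Plain library totals shifted the median of all genes to -0.11 in lining against BMDM.

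Tspan18 values in interstitial and BMDM libraries rest on 4 and 6 reads. No paired analysis was possible because the libraries carry letters that are not shared between groups. The labels give no batch.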

Other observations

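Several tetraspanin genes are neighbours in the genome. Tspan32 and Cd81 lie 33.1 kb apart on chromosome 7 with 0 genes between them. Both were lower in lining than in interstitial libraries (log2 fold changes -2.02 and -0.84). Against BMDM they differed in direction, with Tspan32 lower (-1.93) and Cd81 higher (0.70) in lining. Cd151 and Tspan4 lie 3.77 kb apart on the same chromosome with 1 gene between them, and neither passed between lining and interstitial libraries, while both were higher in lining than in BMDM (1.68 and 0.80). Tspan18 and Cd82 lie 84.6 kb apart on chromosome 2 with 2 genes between them. Of this pair Tspan18 was higher in lining than in interstitial libraries (5.94), and Cd82 did not pass (-0.06). Tspan11 and Tspan9 lie 7.42 kb apart on chromosome 6 with 0 genes between them. Tspan11 had 0 reads in all 9 libraries, and Tspan9 was called in no comparison. These pairs were chosen after their values were seen, and no test of position was made.

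Among 9 members without Tspan18, the coefficient of variation between libraries had a median of 20.1% in lining, 20.5% in interstitial and 4.38% in BMDM libraries. The steadiest member in interstitial libraries was Cd53 at 2.46%, the group in which Cd9 reached 59.9%.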
